A study of Mus musculus with 9 samples.

Results

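The genes of elastic fibres and of lysyl oxidases were followed with age in the lacrimal gland of the mouse, the gland that secretes the watery layer of tears. They are Eln, which encodes elastin, the microfibril and assembly genes Fbn1, Fbln5, Emilin1 and Mfap4, and the lysyl oxidase genes Lox, Loxl1, Loxl2, Loxl3 and Loxl4. These 10 genes of 54232 in the count table were chosen by symbol. All 10 had enough counts to be tested, Mfap4 only through its 24-month libraries. Their counts added up to between 359 and 1213 in a library, out of 40516863 to 42573877. Loxl1 was the gene that moved most clearly: it was 3.08-fold higher at 24 than at 12 months, and it was also called higher at 24 than at 2 months. Fbn1 was 2.05-fold higher at 24 than at 12 months. Leaving out 1 library ended the call of Loxl1 at 24 against 2 months in 7 of 9 cases, and that of Fbn1 in 6 of 9. For Eln no call was made at any age.

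The libraries came from lacrimal glands of female C57BL/6J mice fed ad libitum, with 3 libraries at each of 2, 12 and 24 months of age (the youngest mice carry 8W in their titles). All groups share strain, sex, feeding and the light and dark cycle. Whether each library is a mouse of its own is not stated, and the p-values therefore cover only the spread among these 9 libraries, which may be technical. RNA was taken from the gland in bulk, so fewer cells of a type and less RNA per cell cannot be told apart.

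An elastic fibre has a core of elastin on a scaffold of fibrillin microfibrils. Soluble elastin monomers are carried to the microfibril by fibulin-5, and lysyl oxidases, enzymes that need copper, oxidise lysines so that neighbouring chains join covalently. Such fibres are laid down mainly by fibroblasts and smooth muscle cells and give recoil to vessels, ducts and connective tissue. LOXL1 binds fibulin-5 and elastin and is needed for the upkeep of elastic fibres in adult mice, while LOX cross-links both elastin and collagen.

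The chemistry that joins these genes can be read in their coding sequences, taken from the transcripts of GENCODE M21 on GRCm38, the build of the counts per the submitters' processing notes. The lysyl oxidases share a histidine-rich stretch that holds copper in the active centre, shown here in capitals for 4 of them, 5′ to 3′ on the coding strand and followed by the next 10 codons. Loxl1 is given from chr9:58293690-58294381 (minus strand, exons 3 and 4), Loxl2 from chr14:69682316-69689067 (plus strand, exons 10 and 11), Loxl3 from chr6:83049995-83050155 (plus strand, exons 10 and 11) and Loxl4 from chr19:42598777-42599899 (minus strand, exons 11 and 12). Each of these spans holds an intron, which is left out.
Loxl1: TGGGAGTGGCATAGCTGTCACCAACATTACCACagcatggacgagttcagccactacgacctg
Loxl2: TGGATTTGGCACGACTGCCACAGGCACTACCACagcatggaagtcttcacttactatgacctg
Loxl3: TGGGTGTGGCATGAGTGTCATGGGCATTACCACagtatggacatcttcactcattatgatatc
Loxl4: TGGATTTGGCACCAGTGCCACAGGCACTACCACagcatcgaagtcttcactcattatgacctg
Loxl2 and Loxl4 were identical at 58 of these 63 bases, and Loxl1 was identical to the other 3 at 43 to 45. The longest run of identical bases between any pair of the 5 lysyl oxidase transcripts was 32, between Lox and Loxl1, which is shorter than the reads of 100 bases given in the labels.

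The lysines that these enzymes act on are shown in elastin, where a pair of lysines stands apart by a short run of alanines. The stretch of Eln comes from chr5:134729425-134729699 (minus strand, exons 7 and 8, intron left out), with 1 of its 10 lysine and alanine motifs in capitals. Fbn1, Fbln5, Mfap4 and Emilin1 each encode 1 arginine, glycine and aspartate triplet, a signal by which integrin receptors hold matrix proteins, and its codons are in capitals for the 3 genes shown. These lie at chr2:125345946-125346008 (minus strand, exon 37) for Fbn1, at chr12:101809900-101809962 (minus strand, exon 4) for Fbln5 and at chr11:61485769-61486063 (plus strand, exons 2 and 3, intron left out) for Mfap4.
Eln: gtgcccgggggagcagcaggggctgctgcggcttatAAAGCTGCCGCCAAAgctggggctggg
Fbn1: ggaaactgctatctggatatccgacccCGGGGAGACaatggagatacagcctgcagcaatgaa
Fbln5: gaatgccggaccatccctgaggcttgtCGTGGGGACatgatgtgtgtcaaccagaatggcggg
Mfap4: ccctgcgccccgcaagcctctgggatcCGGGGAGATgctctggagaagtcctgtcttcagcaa
The coding sequence of Eln has 860 codons, of which 38 are for lysine and 76.9% are for glycine, valine, alanine or proline. In the other 9 genes that share was between 22.6% and 35.6%.

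Some libraries stood apart in their transcripts of other tissues. Transcripts of salivary gland, a neighbouring tissue, added up to 872 CPM (counts per 1000000 counts of a library, scaled by TMM) in 2-month replicate 3, to 383 CPM in 12-month replicate 2 and to 256 CPM in 24-month replicate 2. They reached 73.7 CPM in 2-month replicate 2, which was kept where the libraries with the most salivary transcripts were left out. The remaining libraries had 0.598 to 7.33 CPM. Skeletal muscle transcripts reached 28.3 and 52.9 CPM in 12-month replicates 1 and 3, and 0.934 to 2.41 CPM elsewhere. All 9 lacrimal acinar markers had counts in every library and added up to 262560 to 404719 CPM, so the labelled tissue was seen in each. Calls below are by edgeR's quasi-likelihood test with Benjamini-Hochberg adjusted p under 0.05 over 14944 tested genes, with the 3 ages in 1 model.

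Loxl1 stood at 1.99, 1.50 and 1.98 CPM at 2 months, at 0.971, 1.08 and 1.09 CPM at 12 months and at 3.43, 2.29 and 3.97 CPM at 24 months. The 3 ages formed 3 separate ranges, lowest at 12 months and highest at 24 months. The gene (ENSMUSG00000032334, chr9:58287738-58313186, minus strand) was higher at 24 than at 12 months by a log2 fold change of 1.62 (SE 0.27, 95% interval 1.04 to 2.20, adjusted p = 0.00571). That call held with each of the 9 libraries left out in turn, where the log2 fold change lay between 1.45 and 1.82 and the highest adjusted p was 0.0274, without 12-month replicate 1. Without the 3 libraries with the most salivary transcripts the log2 fold change was 1.85 (adjusted p = 0.0385). Without the 2 libraries with muscle transcripts, which leaves 1 library at 12 months, it was 1.59 and not called (adjusted p = 0.158).

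The difference of Loxl1 between 24 and 2 months was smaller, 3.23 ± 0.855 CPM at 24 months and 1.82 ± 0.283 CPM at 2 months (SD, n = 3 libraries each). Its log2 fold change was 0.82 (SE 0.26, 95% interval 0.26 to 1.39, adjusted p = 0.0478), just inside the threshold. Leaving out 1 library ended this call in 7 of 9 cases, all but 12-month replicate 3 and 24-month replicate 2, with adjusted p between 0.0572 without 12-month replicate 2 and 0.188 without 24-month replicate 3. Of all 19 alternatives tried, 13 ended it. Between 12 and 2 months the level was 1.05 ± 0.0669 CPM at 12 months and 1.82 ± 0.283 CPM at 2 months, a log2 fold change of -0.80 (95% interval -1.39 to -0.21, unadjusted p = 0.0117) that was not called (adjusted p = 0.0942). With the 3 ages tested together Loxl1 was called (adjusted p = 0.0052).

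Fbn1, which encodes fibrillin-1, the main building block of microfibrils, stood at 3.11, 2.85 and 3.40 CPM at 2 months, at 2.57, 2.49 and 1.91 CPM at 12 months and at 5.24, 3.14 and 5.92 CPM at 24 months. Every 24-month library lay above every 12-month library, while 24-month replicate 2 fell within the range of 2 months. The gene (ENSMUSG00000027204, chr2:125300594-125507993, minus strand) was higher at 24 than at 12 months by a log2 fold change of 1.03 (SE 0.24, 95% interval 0.51 to 1.56, adjusted p = 0.0321). The call was lost without any of 6 libraries (2-month replicate 3, the 3 of 12 months and 24-month replicates 1 and 3), with adjusted p between 0.0503 without 2-month replicate 3 and 0.121 without 24-month replicate 3. It was also lost without the libraries with salivary transcripts (log2 fold change 1.33, adjusted p = 0.0528) and without those with muscle transcripts (0.95, adjusted p = 0.371).

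Between 24 and 2 months Fbn1 had a log2 fold change of 0.61 and was not called (95% interval 0.09 to 1.13, adjusted p = 0.102). Of 19 alternatives 2 called it, leaving out 24-month replicate 2 (0.84, adjusted p = 0.0282) and scaling by library totals alone (0.92, adjusted p = 0.0414). At 12 months it averaged 2.33 ± 0.363 CPM, against 3.12 ± 0.274 CPM at 2 months (SD, n = 3 each), and that difference was not called (log2 fold change -0.42, adjusted p = 0.335). Fbn1 shares 2442 bases of exon with Gm9913 on the other strand, which had 0 or 1 count in a library. As the strand setting of the counting is not given, reads from that stretch may have gone uncounted, so the level of Fbn1 is uncertain. The 3-age test called Fbn1 (adjusted p = 0.0274), and Loxl1 and Fbn1 were the 2 of 10 genes it called, a share close to the 17.0% of all tested genes that it called.

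**Figure D1:**
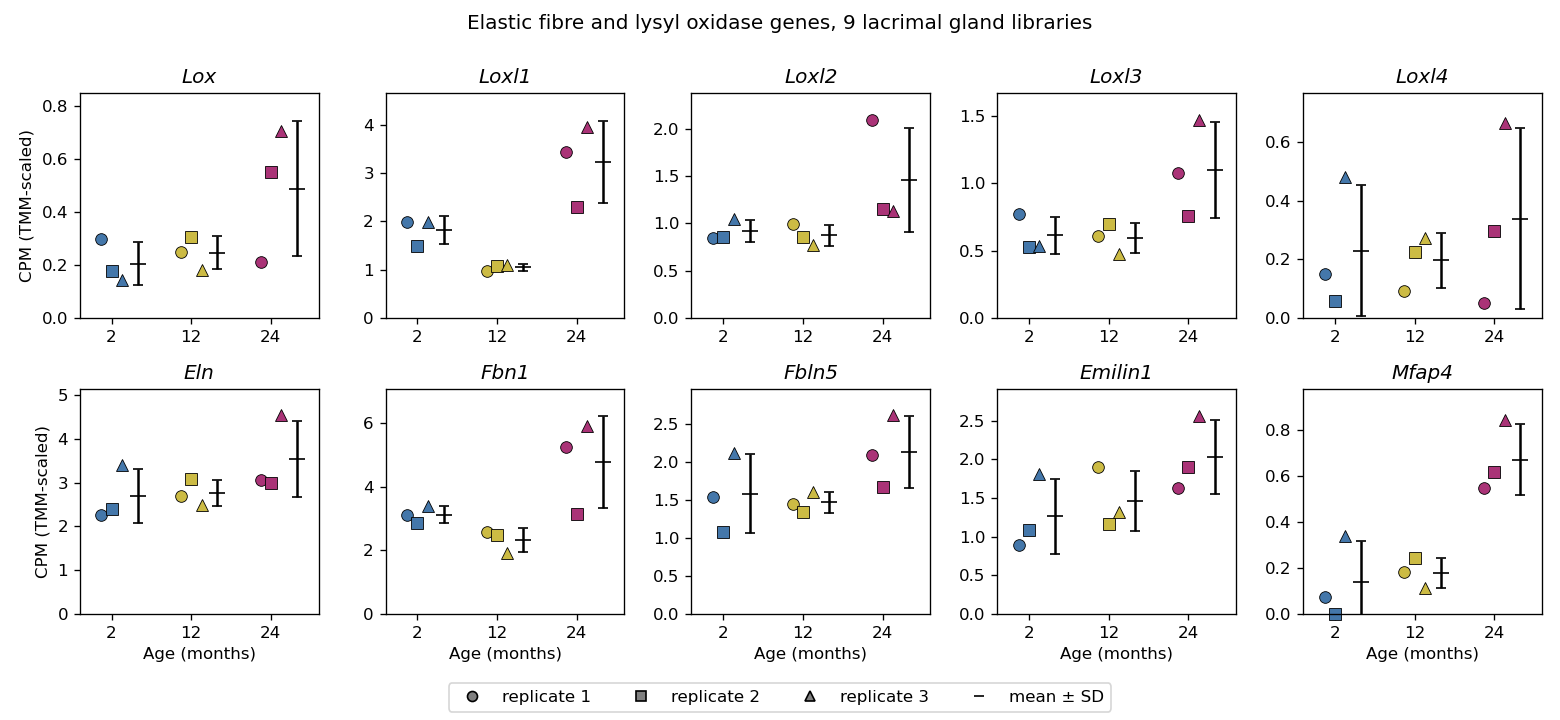
Level of the 10 genes in each library, in TMM-scaled CPM on a linear axis from 0, by age in months; each point is 1 library, and the line and bar are the mean and SD of the 3 libraries of an age, with SD bars ending at 0 where they would pass it. Loxl1 forms 3 separate ranges with 12 months lowest, and the highest point is a 24-month library for every gene.

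Eln, the elastin gene itself, stood at 2.27, 2.41 and 3.40 CPM at 2 months, at 2.69, 3.09 and 2.50 CPM at 12 months and at 3.06, 3.002 and 4.55 CPM at 24 months. The ranges of the 3 ages overlapped, and only 24-month replicate 3 lay above all libraries of both other ages. The log2 fold change of Eln (ENSMUSG00000029675, chr5:134702593-134747323, minus strand) was 0.36 for 24 against 12 months (95% interval -0.15 to 0.87, adjusted p = 0.451) and 0.40 for 24 against 2 months (95% interval -0.12 to 0.91, adjusted p = 0.277). For 12 against 2 months it was 0.04 (95% interval -0.48 to 0.56, adjusted p = 0.951), an interval that still leaves room for a change in either direction.

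Mfap4 encodes a glycoprotein that binds elastin and fibrillin-1 and is made by smooth muscle in mouse and human. It had 3, 0 and 12 counts in the 2-month libraries, 8, 12 and 5 counts in those of 12 months and 21, 27 and 42 counts in those of 24 months. Every 24-month library held more than any younger one. With the 2- and 12-month libraries alone Mfap4 had too few counts to be tested. The averages were 0.671 ± 0.155 CPM at 24 months and 0.138 ± 0.178 CPM at 2 months (SD, n = 3 each), with a log2 fold change of 2.27 (SE 0.79, 95% interval 0.55 to 3.99) that was not called (adjusted p = 0.0685). Without 2-month replicate 3, the library with the most salivary transcripts, the log2 fold change was 3.99 and was called (adjusted p = 0.0229). It was also called with DESeq2 (adjusted p = 0.0269), with library totals alone (adjusted p = 0.0449) and with a filter of 1 count (adjusted p = 0.0149), and not in the other 14 of 18 alternatives. Against 12 months, at 0.180 ± 0.0658 CPM, the log2 fold change was 1.88 (95% interval 0.25 to 3.51, adjusted p = 0.192). Mfap4 shares 89 bases of exon with Mapk7 on the other strand, which had 99 to 219 counts. The strand setting of the counting is not given in the sources used here. Whether reads from that stretch were counted for Mfap4, for Mapk7 or for neither is therefore not known.

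Fbln5, which encodes the carrier protein fibulin-5, had 1.09 to 2.12 CPM at 2 months, 1.35 to 1.61 CPM at 12 months and 1.67 to 2.62 CPM at 24 months. Its 24-month libraries lay above those of 12 months but overlapped with those of 2 months. The log2 fold change was 0.54 for 24 against 12 months (adjusted p = 0.360) and 0.43 for 24 against 2 months (adjusted p = 0.359). Emilin1, which encodes a glycoprotein at the border of elastin and microfibril, had 0.897 to 1.81 CPM at 2 months, 1.17 to 1.90 CPM at 12 months and 1.62 to 2.56 CPM at 24 months. All 3 ranges overlapped, with log2 fold changes of 0.48 for 24 against 12 months (adjusted p = 0.481) and 0.69 for 24 against 2 months (adjusted p = 0.184).

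Among the other lysyl oxidases, Lox, the founding member of the family, was scarce. It had 12, 6 and 5 counts in the 2-month libraries, 11, 15 and 8 counts in those of 12 months and 8, 24 and 35 counts in those of 24 months. The 2 highest libraries were both of 24 months, while 24-month replicate 1 lay within the range of the younger ages. The log2 fold change was 1.24 for 24 against 2 months (95% interval -0.02 to 2.49, adjusted p = 0.164) and 0.99 for 24 against 12 months (adjusted p = 0.371).

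Loxl2, whose enzyme acts on the collagen IV of basement membranes, had 0.847 to 1.05 CPM at 2 months, 0.773 to 0.994 CPM at 12 months and 1.13 to 2.09 CPM at 24 months. All 24-month libraries lay above the younger ones, and 24-month replicate 1 lay highest. Its log2 fold change was 0.73 for 24 against 12 months (adjusted p = 0.264) and 0.66 for 24 against 2 months (adjusted p = 0.200). Loxl3 had 0.529 to 0.772 CPM at 2 months, 0.477 to 0.695 CPM at 12 months and 0.756 to 1.47 CPM at 24 months, with log2 fold changes of 0.89 for 24 against 12 months (adjusted p = 0.224) and 0.84 for 24 against 2 months (adjusted p = 0.153). Loxl3 shares 369 bases of exon with Htra2 on the other strand, which had 106 to 220 counts, so its level is uncertain.

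Loxl4 had between 2 and 33 counts in a library. It had 2 counts in 2-month replicate 2 and in 24-month replicate 1, and 33 counts in 24-month replicate 3. Its log2 fold change was 0.58 for 24 against 2 months (adjusted p = 0.694) and 0.80 for 24 against 12 months (adjusted p = 0.670). Without 24-month replicate 3 these values turned to -0.35 and -0.13.

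**Figure D2:**
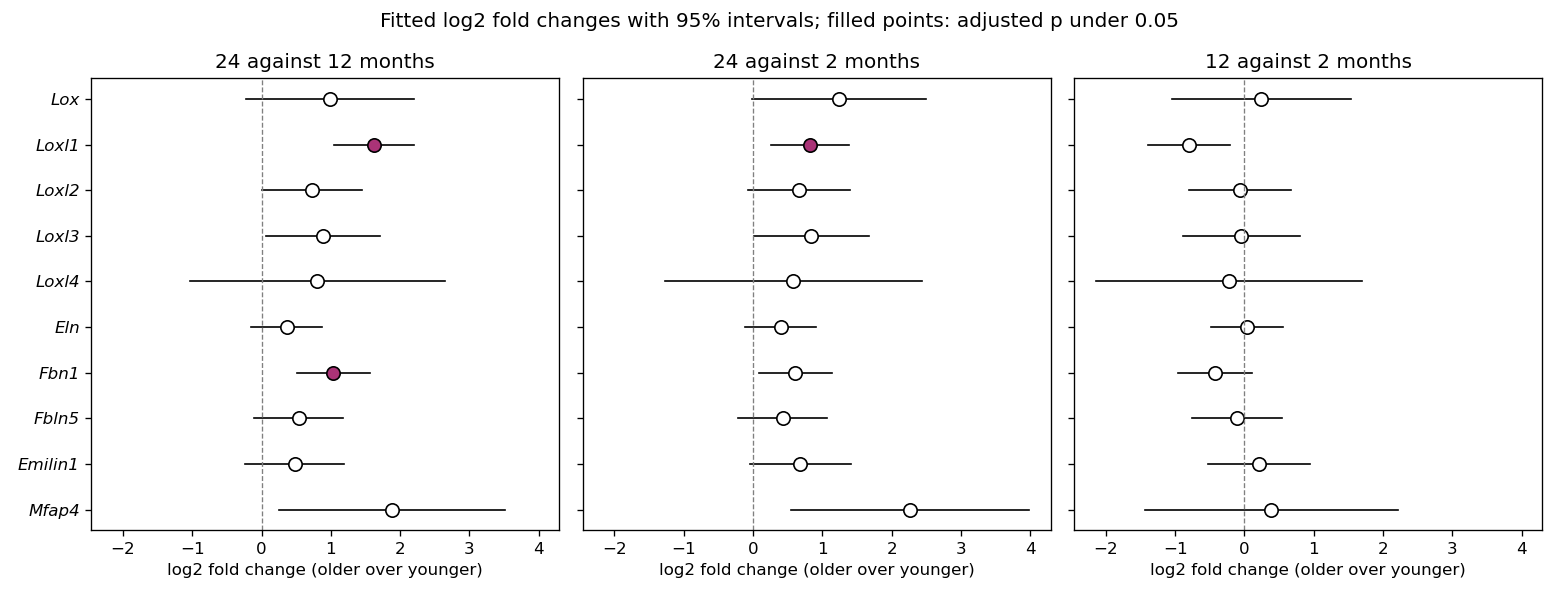
Log2 fold change of each gene in the 3 comparisons of ages, with its 95% interval from edgeR; filled points are called at an adjusted p under 0.05 and the vertical line marks no difference. Called are Loxl1 in both comparisons with 24 months and Fbn1 at 24 against 12 months.

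Read over the 10 genes, 24 against 12 months gave 2 genes called higher (Loxl1 and Fbn1) and none lower, where 2.79% of all tested genes were called higher. All 10 had a positive log2 fold change, with a median of 0.84, against 47.7% positive and a median of -0.02 over all tested genes. In 6 of the 10 (Loxl1, Loxl2, Loxl3, Fbn1, Fbln5 and Mfap4) every 24-month library lay above every 12-month library, where 12.1% of tested genes did. At 24 against 2 months 1 gene of the 10 was called higher (Loxl1), about the share among all tested genes, 9.82%. All 10 log2 fold changes were again positive, with a median of 0.67, against 50.9% positive and a median of 0.01 over all tested genes. In 3 of the 10 (Loxl1, Loxl2 and Mfap4) the ranges did not overlap, where 18.4% of tested genes lay wholly higher. Mfap4 passed the count filter only through the 24-month libraries, where it was high, so its part in these counts, in both comparisons, was favoured beforehand. Both comparisons share the 24-month libraries, so these counts are not independent of each other. Without 24-month replicate 3, 9 of the 10 were positive in each.

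At 12 against 2 months no gene of the 10 was called by edgeR, DESeq2 or limma voom, where edgeR called 7.93% of tested genes in either direction. Loxl1 alone had an unadjusted p under 0.05. The log2 fold changes ran from -0.80 to 0.39 with a median of -0.06, against 0.01 over all tested genes. They were positive for 4 genes and negative for 6, where 50.8% of tested genes were positive, and with scaling by library totals alone 8 were positive. Loxl1 and Fbn1 had every 12-month library below every 2-month library, where 12.4% of tested genes did.

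The high levels at 24 months were unevenly spread over its libraries. Replicate 3 of 24 months held the highest level of the 9 libraries for 9 of the 10 genes, all but Loxl2, where 15.1% of tested genes were highest in that library. The 10 genes added up to 12.0, 10.5 and 15.3 CPM at 2 months, 11.7, 11.5 and 10.2 CPM at 12 months and 19.4, 15.4 and 24.4 CPM at 24 months. The lowest 24-month sum therefore lay just above the highest of 2 months.

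Levels were also divided by the annotated exon length of each gene, which can differ from the length of its transcripts in the gland. That length was 8098 bases for Eln, with 860 codons, and 3297 bases for Loxl1, with 607 codons. The order of genes, the shares of the lysyl oxidases and the size of the ratios below depend on it. Undivided, Fbn1 and Eln had higher mean CPM over the 9 libraries than Loxl1. Per kilobase, Loxl1 had the highest level over the 9 libraries at 0.617 CPM. It was followed by Eln at 0.370, Emilin1 at 0.321, Fbn1 at 0.281, Fbln5 at 0.250, Loxl2 at 0.200, Mfap4 at 0.172, Loxl3 at 0.167, Lox at 0.0655 and Loxl4 at 0.0604. The order differed between the ages. Loxl1 led at 2 months with 0.553 and Eln followed with 0.332 CPM per kilobase, at 12 months Eln stood at 0.341 and Loxl1 at 0.318, and at 24 months Loxl1 stood at 0.980 and Eln at 0.437. Mfap4 stood at 0.0719, 0.0936 and 0.349 CPM per kilobase at 2, 12 and 24 months, below Loxl3 at 2 and 12 months and above Fbln5 (0.308) at 24 months. The ratio of Loxl1 to Eln per kilobase was 2.16, 1.53 and 1.43 in the 2-month libraries, 0.888, 0.862 and 1.07 in those of 12 months and 2.75, 1.87 and 2.14 in those of 24 months. The 12-month libraries were the lowest 3 of the 9 in this ratio, a rank that the exon lengths do not change. Of the summed level per kilobase of the 5 lysyl oxidases, Loxl1 made up 58.9, 58.4 and 56.9% in the 2-month libraries, 43.0, 43.5 and 48.6% in those of 12 months and 60.6, 55.3 and 59.1% in those of 24 months. The shares of 12 months lay below all the others. For Fbn1 the ratio to Eln was 0.917, 0.790 and 0.668 in the 2-month libraries, 0.640, 0.539 and 0.510 in those of 12 months and 1.14, 0.698 and 0.869 in those of 24 months, again lowest in the 3 libraries of 12 months.

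**Figure D3:**
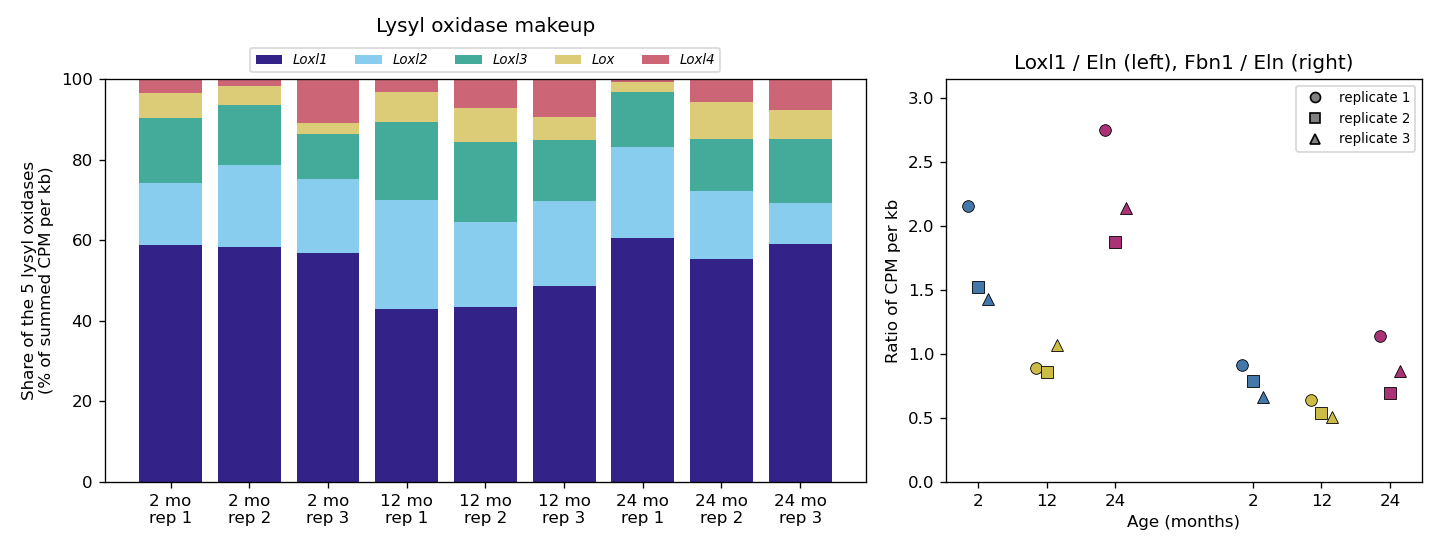
Share of each lysyl oxidase in the summed level per kilobase of the 5 (left, stacked bars in %, 1 bar for each library) and the ratios of Loxl1 to Eln and of Fbn1 to Eln per kilobase (right, linear axis from 0), by age in months; each point is 1 library. Loxl1 made up 43.0 to 48.6% at 12 months and at least 55.3% at the other ages, and the ratio of Loxl1 to Eln was lowest in the 3 libraries of 12 months.

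Across the 9 libraries the members most alike were Loxl1 and Fbn1, with a Pearson r of 0.93 of their log2 levels, and the least alike were Loxl2 and Loxl4 with -0.22. Among 9936 genes of at least 2 CPM, the patterns most like Loxl1 were those of Desi1 (r = 0.98), Wsb2 (r = 0.97) and Atp13a5 (r = 0.97), and those most like Fbn1 were Slc25a12 (r = 0.97), Atp13a5 (r = 0.95) and Tspan9 (r = 0.94). For Eln they were Nsmf (r = 0.93), Iigp1 (r = 0.92) and Col6a3 (r = 0.92), the last a chain of collagen VI. By the ranks of the libraries (Spearman rho) these values were 0.93, 0.82 and 0.68, so the likeness to Col6a3 was weaker by rank. These values describe 9 libraries that share their ages and scaling factors, and the named genes are the highest of many.

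The partners of these genes were read from lists. The counts of called genes, here and in the marker lists below, stand beside the shares of all tested genes. Of these, 9.82% were called higher at 24 against 2 months and 2.79% at 24 against 12 months. At 12 against 2 months 7.93% were called in either direction, so the share called higher alone was smaller. Of 19 further genes of microfibrils and fibre assembly, 15 were tested, and 3 were called higher at 24 than at 2 months and the same 3 at 24 than at 12 months, with none lower, while 0 were called at 12 against 2 months. Mfap5, a microfibril glycoprotein, averaged 2.39 CPM at 24 months and 0.533 CPM at 2 months (log2 fold change 2.15, adjusted p = 0.00504). Efemp1, which encodes fibulin-3, averaged 17.8 CPM at 24 months and 10.2 CPM at 12 months (log2 fold change 0.81, adjusted p = 0.00952), and its call was kept with each of the 9 libraries left out in turn but lost with library totals alone (adjusted p = 0.0575) and without the muscle libraries (adjusted p = 0.250). Fbln1, which encodes fibulin-1, averaged 3.63 CPM at 24 months and 1.70 CPM at 2 months (log2 fold change 1.10, adjusted p = 0.0181), and this call was lost without 2-month replicate 2 or 3 or 24-month replicate 3 (adjusted p up to 0.0906). The calls of Mfap5 and Fbln1 at 24 against 12 months, with adjusted p of 0.0408 and 0.0456, were lost with 7 and 8 of the 9 libraries left out in turn (adjusted p up to 0.140 for Mfap5, without 12-month replicate 1, and up to 0.186 for Fbln1, without 24-month replicate 3). Efemp2, which encodes the fibulin-4 needed to bring LOX to elastin, and Ltbp4, which guides fibulin-5 to microfibrils, were not called in any comparison, with 3.21 and 27.3 CPM at 24 months. The median log2 fold change of the 15 was 0.51 at 24 against 2 months and 0.34 at 24 against 12 months.

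Of 12 genes that prepare or accompany cross-linking, such as the proteases that activate lysyl oxidase, copper carriers and lysyl hydroxylases, 9 were tested. At 24 against 2 months 2 were called higher and none lower, where 9.82% of all tested genes were called higher. In the other comparisons none was called. Pcolce, an enhancer of the protease BMP1, averaged 9.32 CPM at 24 months and 4.85 CPM at 2 months (log2 fold change 0.95, adjusted p = 0.0215). Fn1, which encodes fibronectin, averaged 3.73 CPM at 24 months and 0.849 CPM at 2 months (log2 fold change 2.13, adjusted p = 0.0249). Leaving out 2-month replicate 1 or 2 or 24-month replicate 3 ended both calls, as did 24-month replicate 1 for Fn1, with adjusted p up to 0.0851 for Pcolce and 0.0790 for Fn1. Bmp1 itself and Postn, which encodes periostin, were not called. Of 8 fibrillar collagen genes, 6 were tested, and Col5a3 was called at 24 against 2 months (3.99 CPM at 24 months and 2.11 CPM at 2 months, adjusted p = 0.0469), a call that 6 of the 9 libraries could each undo (adjusted p up to 0.186, without 24-month replicate 3). Col1a1, Col1a2 and Col3a1 were not called in any comparison.

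Of 9 proteases that can cut elastin 7 were tested, and 5 were called higher at 24 than at 2 months, 2 at 24 than at 12 months and 2 at 12 than at 2 months, with none lower. Mmp12, the macrophage elastase, averaged 5.94 CPM at 12 months and 0.760 CPM at 2 months (log2 fold change 2.96, adjusted p = 0.00108). Ctss, which encodes cathepsin S, averaged 59.6 CPM at 12 months and 17.1 CPM at 2 months (log2 fold change 1.80, adjusted p = 0.000228), and was at 61.1 CPM at 24 months. Both calls held in all 19 alternatives tried. Macrophage markers moved at the same ages: of 8, all tested, 4 were called higher (Cd68, Lyz2, C1qa and C1qb) and 1 lower (Cd163) at 12 against 2 months, and 7 higher at 24 against 2 months (these 4, Adgre1, Csf1r and Mrc1). They added up to 54.8 to 83.7 CPM at 2 months, 170 to 228 CPM at 12 months and 228 to 324 CPM at 24 months, and their part in the levels of Mmp12 and Ctss was not tested. Ctsl, which encodes cathepsin L, differed between 24 months at 147 CPM and 12 months at 95.3 CPM (log2 fold change 0.63, adjusted p = 0.00636), a call lost without the salivary libraries (adjusted p = 0.141) and without the muscle libraries (adjusted p = 0.118). Among 8 protease inhibitors, 7 of them tested, 5 were called higher at 24 than at 2 months. Timp2, a metalloprotease inhibitor, averaged 71.5 CPM at 24 months and 37.4 CPM at 2 months (log2 fold change 0.94, adjusted p = 0.000602). Timp3, an inhibitor held in the matrix, averaged 4.66 CPM at 24 months and 1.53 CPM at 2 months (log2 fold change 1.60, adjusted p = 0.00163). At 24 against 12 months 2 inhibitors were called higher. Timp2 (adjusted p = 0.0201) lost that call without 12-month replicate 1 or 2 (adjusted p up to 0.0867), and in 5 of all 19 alternatives. Timp3 (adjusted p = 0.0209) lost it without 12-month replicate 2 or 3 or 24-month replicate 1 or 3 (adjusted p up to 0.0765). Of all 19 alternatives 7 ended the call of Timp3, with an adjusted p of 0.1725 without the salivary libraries. At 12 against 2 months 3 were called higher (Timp4, Slpi and Serpinb1a). Slpi lost its call without 2-month replicate 2 (adjusted p = 0.0599). It lost it in 3 of all 19 alternatives, with adjusted p up to 0.246 with limma voom. Serpinb1a lost its call in 2 of 19, with adjusted p up to 0.127 without the salivary libraries.

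TGF-beta is a well known inducer of elastin and lysyl oxidase expression, and microfibrils store it in latent form. Of 14 genes of that pathway 13 were tested, and 3 were called higher at 24 than at 2 months, 1 at 12 than at 2 months and 0 at 24 than at 12 months. Over all tested genes 9.82% were called higher at 24 against 2 months, and 7.93% in either direction at 12 against 2 months, of which those called higher are a part. Tgfb1 averaged 10.1 CPM at 12 months and 5.62 CPM at 2 months (log2 fold change 0.84, adjusted p = 0.0131), a call lost without any of 3 libraries (adjusted p up to 0.0774, without 12-month replicate 2). That call of Tgfb1 was also lost without the salivary libraries (adjusted p = 0.274). Smad3, a transcription factor that carries the signal, averaged 16.7 CPM at 24 months and 10.7 CPM at 2 months (log2 fold change 0.64, adjusted p = 0.00215). Tgfb3 averaged 6.61 CPM at 24 months and 3.88 CPM at 2 months (log2 fold change 0.77, adjusted p = 0.0323), and lost its call without 3 single libraries (adjusted p up to 0.137, without 24-month replicate 2). Its call was also lost without the salivary libraries (adjusted p = 0.373).

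Fibroblasts and smooth muscle cells were read from their markers. Of 12 fibroblast markers 9 were tested, and 7 were called higher at 24 than at 2 months (Pdgfra, Dcn, Lum, Dpt, Pi16, Col15a1 and Thy1) and 3 at 24 than at 12 months (Pdgfra, Dcn and Pi16). At 12 against 2 months 1 was called higher (Thy1). The 12 added up to 149, 116 and 147 CPM at 2 months, 119, 135 and 138 CPM at 12 months and 188, 168 and 238 CPM at 24 months. The largest parts of these sums were Dcn and Dpp4. Dpp4 was not called in any comparison, with 58.0, 45.1 and 53.4 CPM at 2, 12 and 24 months. Of the 12 markers, Twist2 had 0 counts in all 2-month libraries and Tcf21 had counts in 24-month replicate 3 only. Their part in the differences of Loxl1 and Fbn1 was not tested. Of 11 markers of smooth muscle and pericytes 10 were tested, and 4 were called higher at 24 than at 12 months (Acta2, Myh11, Cnn1 and Lmod1). At 24 against 2 months 1 was called higher (Des), with a median log2 fold change of 0.09. At 12 against 2 months 3 were called lower (Acta2, Myh11 and Cnn1) and Des higher. Their sum was 165 to 207 CPM at 2 months, 124 to 134 CPM at 12 months and 176 to 195 CPM at 24 months, so that, like Loxl1, it was lowest at 12 months, and its part in the pattern of Loxl1 was not tested either. Acta2 and Myh11 are also expressed by the myoepithelial cells around the acini.

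The other marker lists are given in each comparison. At 24 against 12 months 1 of 9 endothelial markers (Vwf), 2 of 8 macrophage markers (Mrc1 and Cd163) and 1 of 9 acinar markers (Lpo) were called higher, and 2 of 4 tested skeletal muscle markers (Acta1 and Ckm) lower. At 24 against 2 months, beside the macrophage markers above, 7 of 9 adipocyte markers and Msln, the 1 tested mesothelial marker, were called higher and 1 acinar marker (Bhlha15) lower. At 12 against 2 months 8 of 9 adipocyte markers and 3 of 4 tested skeletal muscle markers (Acta1, Ckm and Mylpf) were called higher, and Vwf and Lpo lower. No myoepithelial, salivary, tendon and fascia or Schwann cell marker was called in any comparison, with 4, 5, 2 and 5 of them tested. The sum of 6 of the 12 marker lists was highest in 24-month replicate 3, the library that was also highest for 9 of the 10 genes: fibroblast (238 CPM), macrophage (324 CPM), myoepithelial (61.2 CPM), endothelial (55.3 CPM), Schwann cell (52.8 CPM) and mesothelial (5.72 CPM, nearly all from Msln). The sums of all 6 pathway lists were highest there as well, and what part this has in the levels of the 10 genes was not tested.

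**Figure D4:**
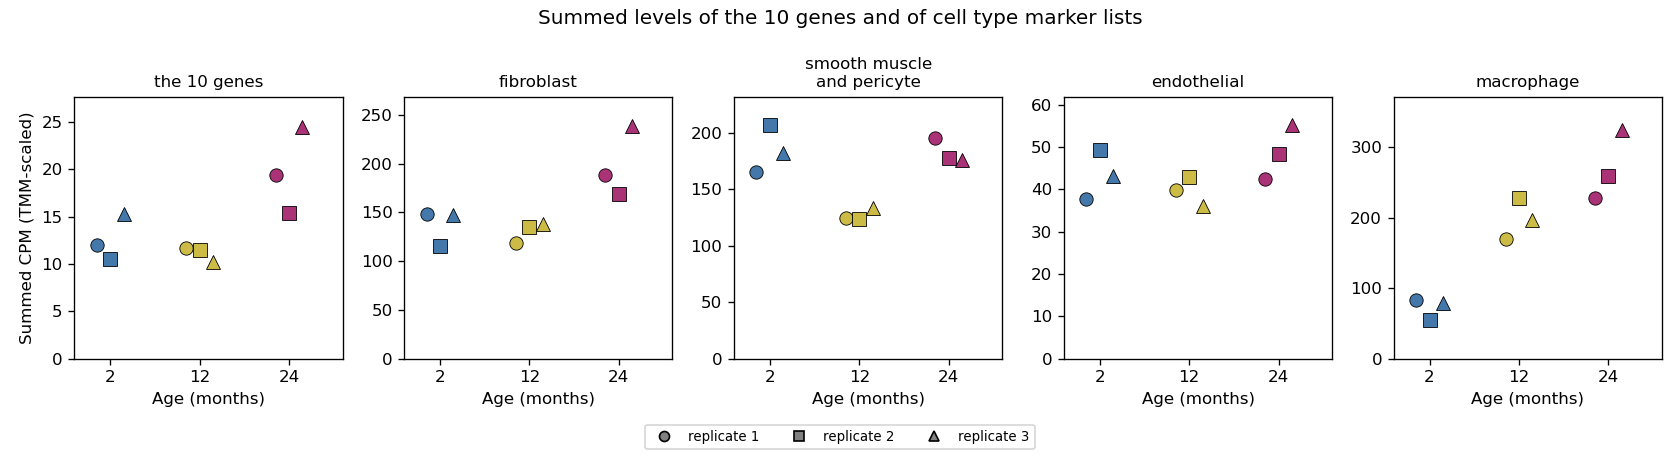
Summed level of the 10 genes and of 4 marker lists in each library, in TMM-scaled CPM on linear axes from 0, by age in months; each point is 1 library. Fibroblast markers lay between 168 and 238 CPM at 24 months, above all younger libraries, and smooth muscle and pericyte markers were lowest at 12 months, at 124 to 134 CPM.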

How the data were processed

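Per the labels' protocols, total RNA was sequenced in pairs of 100 bp. The authors deposited raw counts per gene, and the submitters' processing notes name GRCm38, STAR, HTSeq, cutadapt, FastQC and DESeq2 without versions. Annotation release and strand setting were not given in the sources used here. Log2 values that the authors deposited equalled log2(count / factor + 1) with a median-of-ratios factor per library (100% of values within 1e-06) and served only for that check. Symbols, coordinates and coding sequences came from GENCODE M21 (54079 of 54232 genes had a symbol).

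The test was edgeR's quasi-likelihood F test (edgeR 4.0.16, R 4.3.3) after TMM scaling and filterByExpr (minimum count 10), which left 14944 genes holding 99.93% or more of every library. The 9 libraries entered 1 model of the 3 ages, with 6 residual degrees of freedom and a common coefficient of variation of 21.2%. Benjamini-Hochberg adjustment ran over all genes tested. The SE is the log2 fold change over the square root of F. Levels are TMM-scaled CPM, and likeness used log2 CPM with a prior count of 2. Depth was 40516863 to 42573877 counts per library, which leaves genes of a few counts with wide intervals.

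The 10 genes, the 6 pathway and 12 marker lists, the tests and the alternatives were chosen with earlier results of these data known. Named beyond the 10 were, of each pathway list, up to 4 called genes with the smallest p, or the 2 most abundant where fewer than 2 were called, and fixed genes. Alternatives were RLE scaling, library totals alone, 2 other count filters, DESeq2 1.42.0, limma 3.58.1 voom with sample weights, a replicate block, only the 6 libraries compared, leaving out each library, the 3 with the most salivary or the 2 with muscle transcripts, and thresholds of 0.01 and 0.1. The procedure was tested on simulated data. Python 3.11.15, pandas 2.3.3 and matplotlib 3.10.9 were also used.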

Additional observations from a re-analysis of the deposited data

How the results depend on the processing

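Of the 10 genes, 0 were called at 12 against 2 months, 1 at 24 against 2 months, 2 at 24 against 12 months and 2 with the 3 ages together. At 12 against 2 months the count was 1 at a threshold of 0.1 and 0 under every other setting run. At 24 against 2 months it was 3 with library totals alone, 2 with DESeq2 and at a threshold of 0.1, and 0 with limma voom, with only the 6 libraries compared, at a threshold of 0.01, without the salivary libraries and without the muscle libraries. Leaving out 1 library gave 0 to 2. With a filter of 1 count it stayed at 1, but the gene was Mfap4 (adjusted p = 0.0149) in place of Loxl1 (adjusted p = 0.0604), and without 2-month replicate 3 it was likewise Mfap4. At 24 against 12 months it was 1 with library totals alone, limma voom, only the 6 libraries compared, a threshold of 0.01 and without the salivary libraries, and 0 without the muscle libraries, which leaves 1 library at 12 months assumed to vary like the other ages. Leaving out 1 library gave 1 to 2. With the 3 ages together it was 1 with limma voom, at a threshold of 0.01 and without the muscle libraries, 1 to 2 with 1 library left out, and 3 with a filter of 1 count, with DESeq2 and at a threshold of 0.1. Whether the replicate numbers pair the libraries could not be told. Same-numbered libraries had correlations of their deviations between -0.154 and 0.061, and differently numbered ones between -0.19 and 0.228. These deviations are from means of 3 libraries and cannot decide the question. With the replicate block 0 genes were called at 24 against 2 months, 1 at 24 against 12 months and 1 with the 3 ages together.

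The direction of the positive log2 fold changes with 24 months held in each setting for 9 genes. Loxl4 turned without 24-month replicate 3: it ranged with 1 library left out from -0.35 to 1.67 at 24 against 2 months and from -0.13 to 1.29 at 24 against 12 months. At 12 against 2 months small differences changed sign. Library totals alone, which move the median of all tested genes to 0.31 at 12 and at 24 against 2 months and leave it at -0.02 at 24 against 12 months, gave 0.24 for Loxl2, 0.25 for Loxl3, 0.082 for Loxl4 and 0.18 for Fbln5. Without the salivary libraries the values were -0.15 for Lox, 0.053 for Loxl2, 0.76 for Loxl4 and 0.21 for Fbln5, and without the muscle libraries 0.17 for Loxl3 and -0.12 for Emilin1. With limma voom they were 0.040 for Loxl3 and -0.018 for Eln. With 1 library left out Loxl2 ranged from -0.17 to 0.042, Loxl3 from -0.18 to 0.16, Loxl4 from -0.66 to 0.87, Eln from -0.074 to 0.24, Fbln5 from -0.32 to 0.15, Emilin1 from -0.026 to 0.56 and Mfap4 from -0.17 to 2.11. The cause of these turns was not tested.

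Over all genes 1185, 2597, 656 and 2534 were called at 12 against 2, 24 against 2 and 24 against 12 months and with the 3 ages together. The counts that moved by over 1.5 times were 2026 and 1486 with a filter of 1 count (12 against 2 and 24 against 12 months), 1821 and 1208 with DESeq2 (the same), 340 with library totals alone (24 against 12 months), and 701, 409 and 1640 with the block (12 against 2, 24 against 12 months, 3 ages). Without the salivary libraries they were 127, 626, 170 and 471, and without the muscle libraries 746 and 132 (12 against 2 and 24 against 12 months). At a threshold of 0.01 they were 383, 891, 211 and 842, and at 0.1 they were 1921, 1192 and 3853 (all but 24 against 2 months). The lowest with 1 library left out were 435, 1160, 312 and 1396. Lox, Loxl3, Loxl4 and Mfap4 were not tested with a filter of 1 CPM in 3 libraries. Nor was Mfap4 tested at 12 against 2 months with only the 6 libraries compared.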
